A study of Mus musculus with 20 samples.

Results

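The genes described here are the receptors of the TREM (triggering receptor expressed on myeloid cells) family and the adaptors that carry their signals: Trem2, Trem1, Trem3, Treml1, Treml2, Treml4, Tyrobp, which encodes DAP12, and Hcst, which encodes DAP10. They were chosen by name, as the knocked-out gene, its relatives and its adaptors, and make up 8 of the 19751 genes that the arrays measured with a probe set annotated to exactly 1 gene. Each of the 8 had 1 such probe set. Of the 8, 7 passed the filter on low values and were tested. Trem3 did not pass, and is described by its values.

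RNA came from microglia, the resident macrophages of the brain, which had been isolated by flow sorting from dissociated brains of saline-perfused littermates aged 8.5 months. The study compared microglia with and without Trem2, in mice with and without amyloid. The 4 groups were WT (4 arrays), Trem2-/- (4 arrays), 5XFAD (5 arrays) and Trem2-/-5XFAD (6 arrays). As background, 5XFAD mice express mutant human transgenes for presenilin and the amyloid precursor protein under the neuronal Thy1 promoter, and form amyloid plaques. The sources used here do not describe the Trem2 allele, where the probes lie relative to the deletion, or the gate of the sort. A further array has a WT title and a Trem2-/- genotype label, and was put in no group.

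TREM receptors are single-pass surface proteins with an immunoglobulin domain. Most of them have no signalling motif of their own and pair through a charged residue in the membrane with DAP12, whose immunoreceptor tyrosine-based activation motif (ITAM) is phosphorylated by Src family kinases and then binds the kinase Syk. DAP10 carries a different motif, which recruits phosphoinositide 3-kinase, and joins DAP12 in TREM2 complexes. In microglia TREM2 binds lipids and apolipoproteins and is needed for the full response of these cells to plaques.

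All values below are log2(intensity + 1), and differences are on that scale, on which the change of weakly expressed genes is understated. A gene was tested if it exceeded the 40th percentile of its array, which lay between 4.16 and 4.34 on this scale, on at least 4 arrays. Differences were tested with limma over 12728 genes, and a gene was called at a Benjamini-Hochberg adjusted p under 0.05. Errors of differences are standard errors. Levels were compared between groups for 1 gene at a time and never between genes, since probe sets differ in brightness.

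Several features of the arrays bear on these genes. All 11 microglial markers that were measured lay above the filter on all 19 arrays, and their mean ran from 11.26 to 11.50 in WT, from 11.23 to 11.33 in Trem2-/-, from 10.79 to 10.98 in 5XFAD and from 11.15 to 11.23 in Trem2-/-5XFAD. Arrays WT 1, WT 2, 5XFAD 1 and 5XFAD 2 carried a salivary gland transcript, Klk1b22, at 7.91 to 9.51, against at most 3.80 on the other arrays. The mean of 15 neutrophil markers was highest on Trem2-/-5XFAD 1, at 5.86, and on Trem2-/- 1, at 5.71. Xist exceeded the Y-linked signal on 3 of 4 WT, 3 of 4 Trem2-/-, 1 of 5 5XFAD and 0 of 6 Trem2-/-5XFAD arrays, so sex was not balanced between the groups.

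Trem2 itself was the check on the genotype labels. Its signal (probe set 10445781, chromosome 17) was 11.37, 11.36, 11.39 and 11.14 on the 4 WT arrays, and 11.80, 11.79, 11.45, 11.67 and 11.66 on the 5 5XFAD arrays. On the Trem2-/- arrays it was 6.84, 7.02, 7.0 and 6.98, and on the 6 Trem2-/-5XFAD arrays it ran from 6.75 to 7.60 with a median of 6.96. Every knockout array was thus below every array with Trem2, and all 19 stayed above the filter, knockouts included. The signal was 20.5-fold lower in Trem2-/- than in WT (-4.36 ± 0.14, adjusted p = 1.57e-14) and 24.7-fold lower in Trem2-/-5XFAD than in 5XFAD (-4.63 ± 0.12, adjusted p = 2.12e-16). In sorted cells measured in bulk, as here, fewer cells of a type and less RNA per cell cannot be told apart.

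With Trem2 intact, its transcript was 1.28-fold higher in 5XFAD than in WT, and the groups did not overlap. The difference of 0.36 ± 0.13 had an adjusted p of 0.0731 and was not called. It was 0.33 ± 0.19 without the 4 arrays with salivary transcripts, with an adjusted p of 0.33. This difference was called in 4 of 32 alternative fits. Among these were the fits without 5XFAD 3 (0.42, adjusted p = 0.0475) and without Trem2-/-5XFAD 4 (0.36, adjusted p = 0.0183). In the knockouts the residual signal did not differ detectably between Trem2-/-5XFAD and Trem2-/- (0.09 ± 0.13, 95% interval -0.18 to 0.35, adjusted p = 0.818).

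**Figure D1:**
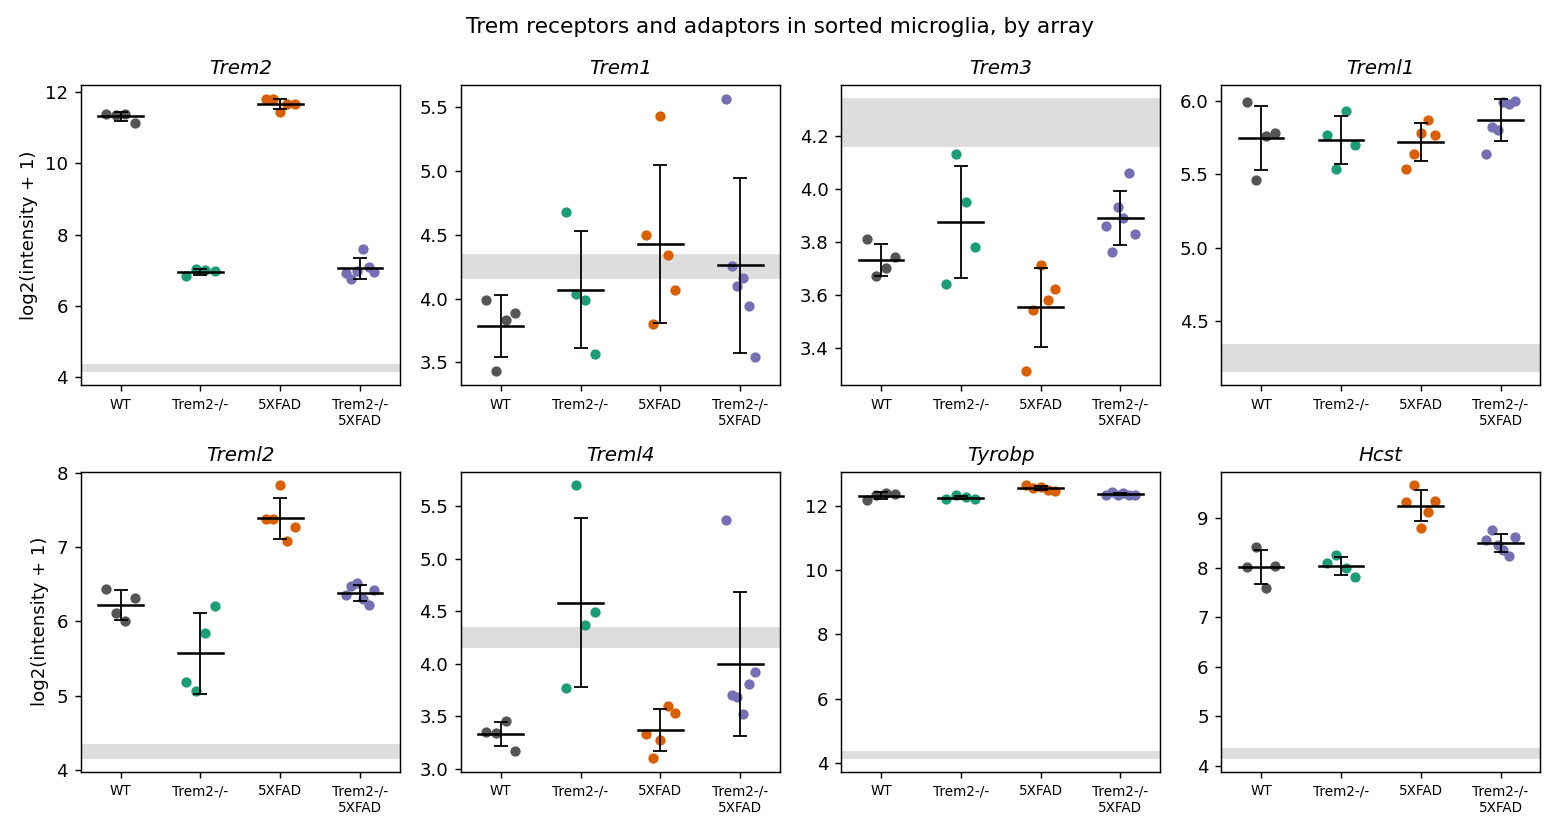
Signal of each of the 8 genes on every array, as log2(intensity + 1), by genotype; points are arrays, horizontal bars are means, vertical bars are SD and the grey band is the range of the filter (4.16 to 4.34). Trem2 separates the knockouts from the other groups, Treml2 and Hcst are highest in the 5XFAD arrays, and Trem3 lies below the band on all arrays.

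Across the 7 tested genes, the calls lay on Treml2, Hcst and the deleted gene. In 5XFAD vs WT 2 were called higher and 0 lower, where 8.23% of all tested genes were called higher and 15% in either direction. There 4 of the 7 had groups that did not overlap, against 13.4% of all tested genes. Trem2-/-5XFAD vs 5XFAD gave 3 genes called lower, Trem2 among them, where 4.46% of all tested genes were called lower and 7.68% in either direction. In 4, again with Trem2 among them, the groups did not overlap, against 7.14%. In Trem2-/- vs WT, Trem2 alone was called, and lower, where 0.228% of all tested genes were called lower and 0.613% in either direction. There 2 of the 7 did not overlap, against 5.79%. They were Trem2, whose separation follows from the genotype, and Treml4, which lay below the filter on all WT arrays. Treml2 alone was called in Trem2-/-5XFAD vs Trem2-/-, and higher, where 1.63% of all tested genes were called higher and 2.18% in either direction, and it alone did not overlap, against 6.01%. With so few genes, these counts describe the family and say nothing further about it.

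**Figure D2:**
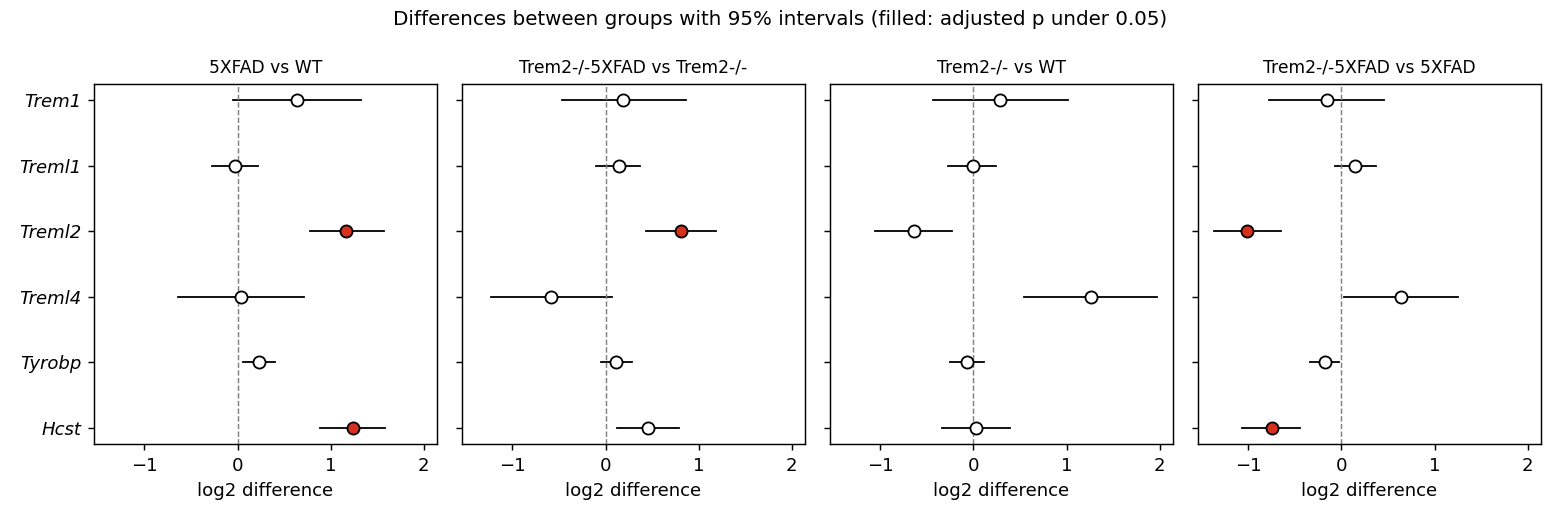
Differences between groups for the 6 tested genes other than Trem2, on the log2 scale; circles are the fitted differences, lines their 95% intervals, and filled circles have an adjusted p under 0.05. Treml2 is filled in 3 of the 4 panels, at 1.17, 0.81 and -1.01, and Hcst in 2, at 1.24 and -0.75.

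Treml2 was the TREM-like receptor that changed. It encodes TLT-2, which is found on myeloid cells and lymphocytes and, unlike TREM2, is not known to need DAP12. Its signal (probe set 10445767, chromosome 17) was 6.44, 6.11, 6.0 and 6.32 in WT and 7.38, 7.38, 7.83, 7.08 and 7.27 in 5XFAD. Every 5XFAD array was above every other array of the study. Treml2 was 2.25-fold higher in 5XFAD than in WT (1.17 ± 0.19, adjusted p = 0.000156).

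Without Trem2, the level in plaque-bearing mice lay close to that of WT. The 6 Trem2-/-5XFAD arrays ran from 6.22 to 6.52 with a median of 6.38, which is within the span of WT apart from 2 values above its highest of 6.44. Treml2 was 2.01-fold lower there than in 5XFAD (-1.01 ± 0.17, adjusted p = 0.000559). The Trem2-/- arrays were the lowest and the most scattered, at 5.18, 5.06, 5.84 and 6.21, and overlapped with WT. Their difference from WT, -0.64 ± 0.20, was not called over all 4 arrays (adjusted p = 0.167), and was -0.86 with an adjusted p of 0.0455 without Trem2-/- 4.

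The order of the Treml2 levels was therefore 5XFAD (7.39 ± 0.28, SD, n = 5), Trem2-/-5XFAD (6.38 ± 0.11, SD, n = 6), WT (6.22 ± 0.20, SD, n = 4) and Trem2-/- (5.57 ± 0.55, SD, n = 4). The middle 2 of these overlapped, and their difference was not among those tested. Between the knockouts, Treml2 was 1.75-fold higher in Trem2-/-5XFAD than in Trem2-/- (0.81 ± 0.18, adjusted p = 0.0202), and the groups did not overlap. This call was lost without Trem2-/- 1 (0.68, adjusted p = 0.0989), without Trem2-/- 2 (0.64, adjusted p = 0.0951), without the 2 arrays with the most neutrophil transcripts (0.68, adjusted p = 0.146) and with the sex signal in the fit (0.63, adjusted p = 0.214). The change with 5XFAD did not differ detectably between mice with and without Trem2, with an interaction of -0.36 ± 0.26 (95% interval -0.91 to 0.19, adjusted p = 0.587). The calls of Treml2 in 5XFAD vs WT and in Trem2-/-5XFAD vs 5XFAD held in all 32 alternative fits, the one with the sex signal included.

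Treml1 did not move in any comparison beyond the spread of the arrays. It encodes TLT-1, a receptor of platelets and megakaryocytes whose tail carries an inhibitory motif. The signal (probe set 10445789) was 5.99, 5.46, 5.76 and 5.78 in WT, 5.77, 5.54, 5.93 and 5.70 in Trem2-/-, and 5.54, 5.64, 5.78, 5.87 and 5.77 in 5XFAD. In Trem2-/-5XFAD it ran from 5.64 to 6.0, and all 4 groups overlapped. The 95% interval of 5XFAD vs WT, -0.27 to 0.22, and that of Trem2-/- vs WT, -0.27 to 0.24, bound any change to these sizes. Trem2-/-5XFAD vs 5XFAD had an interval of -0.07 to 0.37, and Trem2-/-5XFAD vs Trem2-/- of -0.10 to 0.37. Of the 6 platelet and megakaryocyte markers measured, Pf4, Gp9 and Tubb1 lay above the filter on all 19 arrays, Itga2b on 13, Clec1b on 4 and Ppbp on 0.

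Treml4 lay near the filter and was highest in Trem2-/-. In mice this receptor is found on macrophages and dendritic cells of the spleen, where it binds dying cells. Treml4 signal (probe set 10445758) was 3.35, 3.34, 3.45 and 3.17 in WT and 3.33, 3.10, 3.27, 3.60 and 3.53 in 5XFAD, below the filter on all of these arrays. In Trem2-/- it was 3.77, 5.70, 4.37 and 4.49, with 3 arrays above the filter and none overlapping with WT. Among Trem2-/-5XFAD arrays it ran from 3.52 to 5.37 with a median of 3.76, and 1 of 6 arrays passed the filter.

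Treml4 passed the filter only through those 3 Trem2-/- arrays and that 1 Trem2-/-5XFAD array, so its differences from WT and from 5XFAD are against groups that lay wholly below the filter. The difference between Trem2-/- and WT, 1.26 ± 0.34, had a 95% interval of 0.54 to 1.97 and an adjusted p of 0.117, and was called in 0 of the 26 alternative fits that tested it. The difference was 0.64 ± 0.29 between Trem2-/-5XFAD and 5XFAD (adjusted p = 0.229). The means of the monocyte and border macrophage markers also ran higher in these Trem2-/- arrays, with overlap for the border macrophages. The mean of 8 monocyte markers ran from 4.91 to 5.20 there and from 4.61 to 4.81 in WT, and that of 8 border macrophage markers from 6.32 to 7.55 and from 5.95 to 6.80. The monocyte markers did not all run higher there. S100a4 ran from 5.90 to 6.25 there and from 4.76 to 5.61 in WT. Plac8 ran from 3.77 to 5.86 and from 3.47 to 4.35. Ccr2 ran from 3.66 to 4.33 and from 3.60 to 4.73, and Fn1 from 3.42 to 3.83 and from 3.74 to 4.10. Of the 8 monocyte markers, 4 to 5 lay above the filter on each Trem2-/- array and 3 to 5 on each WT array. Of 4 tested monocyte markers 0 were called, and of 8 border macrophage markers Cd163 was. Their part in the Treml4 values was not tested.

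Trem1 varied more within the groups than between them. It is an amplifier of inflammation on neutrophils and monocytes that signals through DAP12. Trem1 signal (probe set 10445746) was 3.99, 3.43, 3.83 and 3.89 in WT, 4.68, 4.04, 3.99 and 3.57 in Trem2-/-, and 4.50, 3.80, 5.43, 4.34 and 4.07 in 5XFAD. In Trem2-/-5XFAD it ran from 3.54 to 5.57 with a median of 4.13. It was above the filter on 0 of 4 WT, 1 of 4 Trem2-/-, 3 of 5 5XFAD and 2 of 6 Trem2-/-5XFAD arrays, and all groups overlapped. The 5XFAD vs WT difference was 0.64 ± 0.33 (95% interval -0.05 to 1.33, adjusted p = 0.223).

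The 2 highest Trem1 values were on Trem2-/-5XFAD 1, at 5.57, and 5XFAD 3, at 5.43. Those arrays also had the highest neutrophil marker mean of their groups, at 5.86 and 4.86. Their S100a8, a neutrophil calgranulin subunit, was at 11.11 and 8.99. On Trem2-/-5XFAD 1, 11 of the 15 markers lay above the filter. Array 5XFAD 3 had 5 above it, against 6 on 5XFAD 1 and on 5XFAD 2, and its Camp was at 3.97. Trem2-/-5XFAD 6 had a neutrophil mean of 5.25 and Trem1 at 3.54, the lowest of its group. By group the neutrophil mean ran from 4.05 to 4.41 in WT, 4.38 to 5.71 in Trem2-/-, 4.21 to 4.86 in 5XFAD and 4.51 to 5.86 in Trem2-/-5XFAD. None of 10 tested neutrophil markers was called in any comparison, and Mmp8, Cxcr2 and Stfa2 lay above the filter on 0 arrays. The part of neutrophil RNA in the Trem1 values was not tested.

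**Figure D3:**
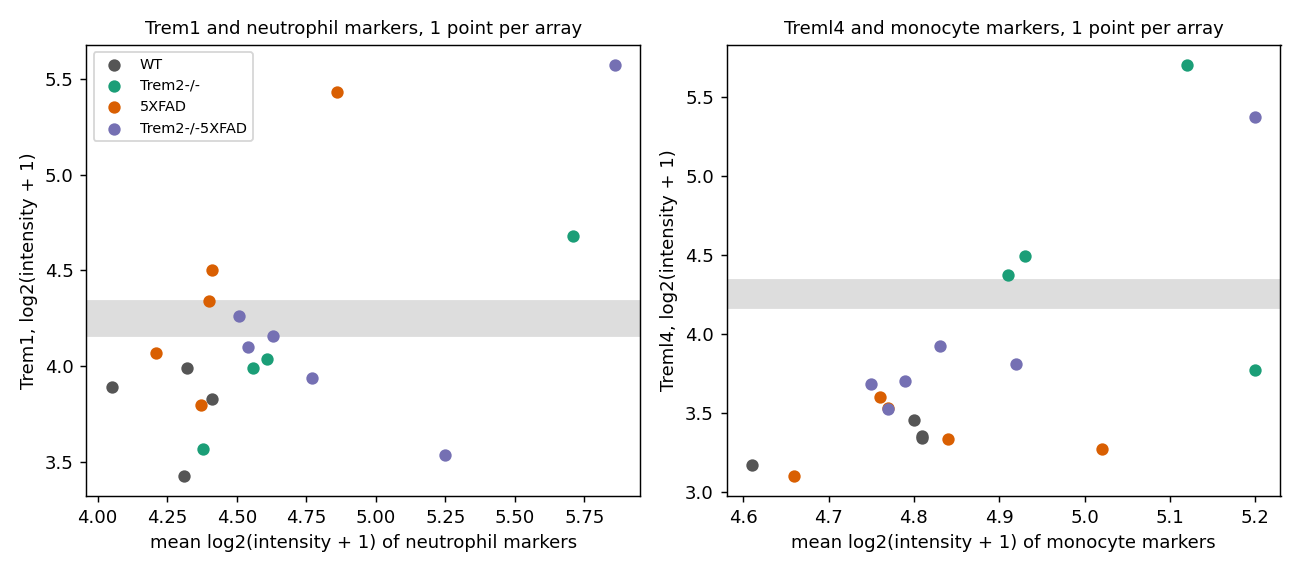
Trem1 against the mean of the neutrophil markers (left) and Treml4 against the mean of the monocyte markers (right), both axes as log2(intensity + 1), 1 point per array coloured by genotype; the grey band is the range of the filter. Trem1 is highest on Trem2-/-5XFAD 1 (5.57) and Treml4 on a Trem2-/- array (5.70).

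Trem3, a DAP12-coupled receptor of mouse macrophages, lay below the filter on every array. Its signal (probe set 10445753) was 3.81, 3.67, 3.70 and 3.74 in WT, 3.64, 4.13, 3.95 and 3.78 in Trem2-/-, and 3.31, 3.54, 3.71, 3.58 and 3.62 in 5XFAD. In Trem2-/-5XFAD it ran from 3.76 to 4.06. In a fit with no filter, Trem3 was 0.33 ± 0.09 higher in Trem2-/-5XFAD than in 5XFAD (adjusted p = 0.0405). All values of both groups lay below the 40th percentile of their arrays, so this difference is between signals too low to show expression of the gene.

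Tyrobp, the DAP12 adaptor, stayed within a narrow range. Its signal (probe set 10551883, chromosome 7) was 12.17, 12.32, 12.40 and 12.36 in WT and 12.63, 12.56, 12.59, 12.48 and 12.46 in 5XFAD, and these groups did not overlap. In Trem2-/- it was 12.21, 12.33, 12.26 and 12.20, and in Trem2-/-5XFAD it ran from 12.33 to 12.43. The 5XFAD arrays were thus above all arrays of the other 3 groups, which overlapped with each other.

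None of the Tyrobp differences was called. That of 5XFAD vs WT was 0.23 ± 0.08, or 1.17-fold (adjusted p = 0.0652), and it was 0.13 ± 0.11 without the 4 arrays with salivary transcripts (adjusted p = 0.566). Relative to 5XFAD, Trem2-/-5XFAD was at -0.18 ± 0.07 (adjusted p = 0.16). Loss of the receptor alone left the adaptor's transcript at -0.07 ± 0.09 relative to WT, with a 95% interval of -0.25 to 0.11.

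Hcst, the DAP10 adaptor, was also highest in 5XFAD. Its signal (probe set 10561920, chromosome 7) was 8.02, 8.41, 7.59 and 8.03 in WT, 8.10, 8.25, 7.99 and 7.82 in Trem2-/-, and 9.33, 9.66, 8.80, 9.12 and 9.34 in 5XFAD. In Trem2-/-5XFAD it ran from 8.24 to 8.75 with a median of 8.51. The 5XFAD arrays were above all the others, and WT, Trem2-/- and Trem2-/-5XFAD overlapped.

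Hcst was 2.36-fold higher in 5XFAD than in WT (1.24 ± 0.17, adjusted p = 1.75e-05). It was 1.69-fold lower in Trem2-/-5XFAD than in 5XFAD (-0.75 ± 0.15, adjusted p = 0.00251). Both calls held in all 32 alternative fits, with ranges of 1.10 to 1.37 and of -0.87 to -0.59. These comparisons share the 5XFAD arrays. Between knockouts the difference was 0.46 ± 0.16 (95% interval 0.12 to 0.79, adjusted p = 0.165), and between Trem2-/- and WT it was 0.03 ± 0.18 (95% interval -0.34 to 0.39, adjusted p = 0.972). The interaction, the change with 5XFAD in mice without Trem2 minus that in mice with it, was -0.78 ± 0.23 (95% interval -1.26 to -0.30, adjusted p = 0.0801), which was not called. It was -0.90 with an adjusted p of 0.0305 without 5XFAD 3, and -0.91 with an adjusted p of 0.0328 without WT 2. Over the 7 genes the interaction gave 0 calls in limma, with 1 at an unadjusted p under 0.05, where 2.6% of all tested genes were called.

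Markers of other cells moved in the comparisons in which Treml2 and Hcst changed. Of 8 border macrophage markers, 3 were called lower in 5XFAD vs WT and 7 higher in Trem2-/-5XFAD vs 5XFAD, opposite in direction to Treml2 and Hcst. Over all tested genes, 6.77% were called lower in the first comparison and 3.21% higher in the second. Their mean ran from 5.01 to 5.78 in 5XFAD and from 6.18 to 6.79 in Trem2-/-5XFAD, and none of them was below the filter on all arrays. Of 11 microglial markers, 8 were called lower in 5XFAD vs WT and 5 higher in Trem2-/-5XFAD vs 5XFAD. The part of these shifts in the Treml2 and Hcst values was not tested.

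Because Hcst changed most among the adaptors, its promoter is shown beside that of the deleted gene. RefSeq windows of 250 bases before to 50 after the start (GRCm38.p6) matched 5 of the 8 genes, Trem2, Trem1, Treml1, Treml4 and Hcst. The Hcst window lies at chr7:30419805-30420104 on the minus strand and the Trem2 window at chr17:48346151-48346450 on the plus strand. Both are written 5′ to 3′ in the direction of the gene, and capitals mark matches to AGGAAGT, the core bound by ETS factors including PU.1.
Hcst: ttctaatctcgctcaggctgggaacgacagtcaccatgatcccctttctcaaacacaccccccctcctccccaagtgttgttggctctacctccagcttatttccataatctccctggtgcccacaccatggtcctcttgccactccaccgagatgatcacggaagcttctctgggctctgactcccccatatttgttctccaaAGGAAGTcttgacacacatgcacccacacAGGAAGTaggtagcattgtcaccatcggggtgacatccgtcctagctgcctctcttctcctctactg
Trem2: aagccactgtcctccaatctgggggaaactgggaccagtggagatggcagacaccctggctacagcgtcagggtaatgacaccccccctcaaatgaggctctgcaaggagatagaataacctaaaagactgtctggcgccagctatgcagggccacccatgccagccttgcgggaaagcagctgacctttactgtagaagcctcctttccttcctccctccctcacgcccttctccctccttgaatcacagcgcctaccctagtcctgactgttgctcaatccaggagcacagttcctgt

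The search, on both strands, was for AGGAAGT, for the AP-1 site TGACTCA and for the E-box CACGTG. The Hcst window held AGGAAGT at -46 and -17 from the start, and the Trem1 window held it at -109 on the minus strand. The Treml1 window held CACGTG at -69, no matches overlapped each other, and the letters of the 3 motifs were not found in the Trem2 and Treml4 windows. Over 32851 windows of 300 bases, AGGAAGT was present in 9.35%, TGACTCA in 5.2% and CACGTG in 7.15%.

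Genes whose values tracked these genes were named by Pearson's r over the 19 arrays, given as a description, since the arrays share genotype groups and scaling. For Treml2 the closest were Myo1e (0.91), Asap1 (0.91) and Eepd1 (0.90). For Hcst they were Cxcl16 (0.94), Ptger4 (0.93) and Ephx1 (0.93), and for Tyrobp the ribosomal protein genes Rpl36a (0.95) and Rpl24 (0.94) with Cpq (0.94). Trem1 was closest to Hp (0.80), which encodes haptoglobin. Treml4 was closest to Plac8 (0.81), 1 of the 8 monocyte markers, which did not all run higher in Trem2-/-.

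Much of this likeness lay between the genotype groups. Treml2 and Hcst had an r of 0.73 over all arrays and of -0.28 over deviations from the group means. Tyrobp and Hcst had 0.77 and 0.00. Trem1 and Hp kept an r of 0.86 over deviations, where array Trem2-/-5XFAD 1 had the highest Hp value, 5.73. For Treml4 the closest over deviations were Mylk3 (0.71), Xaf1 (0.70) and Try5 (0.70), and Plac8 was not among these 3.

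The Trem and Treml genes lie together on mouse chromosome 17, so their neighbours show whether genes near the deleted locus differed between the genotypes. In order along the chromosome, the tested genes were Foxp4, Trem1, Treml4, Treml2, B430306N03Rik, Trem2, Treml1, Nfya, Oard1, Apobec2 and Unc5cl. In Trem2-/- vs WT, 0 of the 10 neighbours were called, where 0.613% of all tested genes were, and their differences ran from -0.64 (Treml2) to 1.26 (Treml4). Between Trem2-/-5XFAD and 5XFAD 3 were called, against 7.68% of all tested genes, which were Treml2, Foxp4 (-0.44 ± 0.13, adjusted p = 0.0476) and Apobec2 (0.87 ± 0.21, adjusted p = 0.0106). In 5XFAD vs WT, where the Trem2 locus was intact, 4 of the 10 were called, against 15% of all tested genes. They were Treml2, Foxp4 (0.55 ± 0.15), Oard1 (-0.76 ± 0.18) and Apobec2 (-0.92 ± 0.23). Alternative fits were not compared for these neighbours outside the family. Tyrobp and Hcst are adjacent on chromosome 7, and of the nearby tested genes Sdhaf1, Lrfn3, Nfkbid and Aplp1, 0 were called in any comparison.

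**Figure D4:**
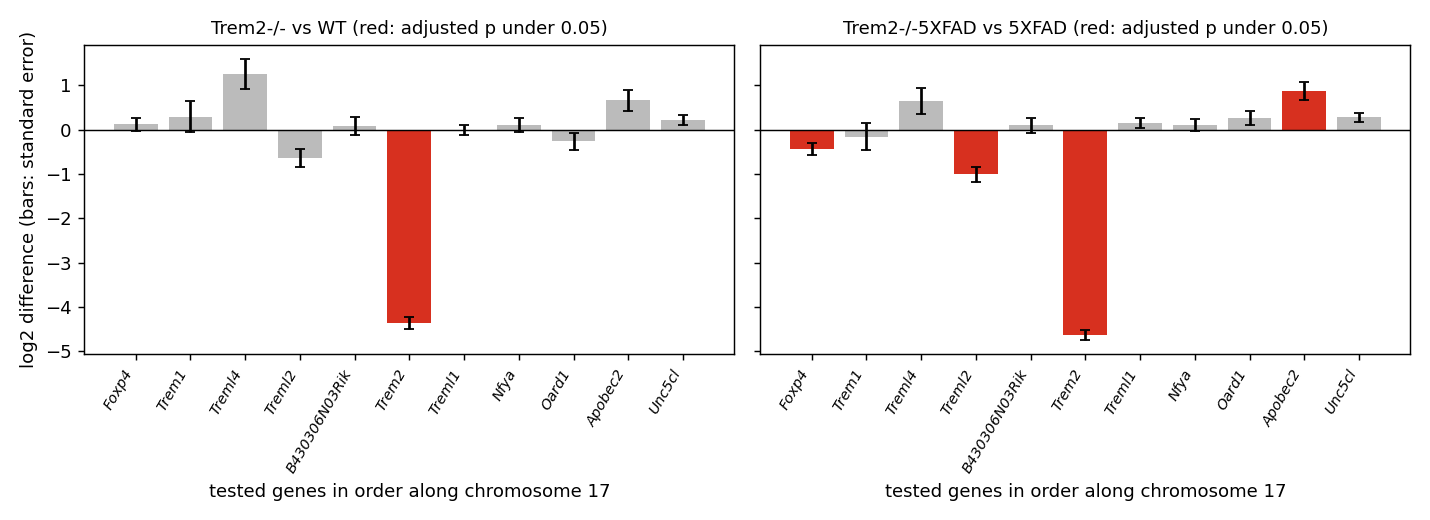
Differences of Trem2 and the 10 nearest tested genes in chromosomal order, for Trem2-/- vs WT (left) and Trem2-/-5XFAD vs 5XFAD (right), on the log2 scale; bars start at 0, error bars are standard errors, and red marks an adjusted p under 0.05. Trem2 is the deepest bar in both panels (-4.36 and -4.63), and no neighbour is red on the left.

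Other receptors linked to DAP12 or DAP10, not all of them by direct pairing, formed a list of their own. Of 18 listed, 14 had a probe set of their own and 9 were tested. Called lower in 5XFAD than in WT were 3 of these, where 6.77% of all tested genes were, and the median difference was -0.12, against -0.02 for all tested genes. They were Siglech, a sialic acid-binding microglial receptor (-0.44 ± 0.09, adjusted p = 0.00105), Csf1r, the receptor for the microglial growth factors CSF1 and IL-34 (-0.30 ± 0.08, adjusted p = 0.0123), and Klrd1, a subunit of natural killer cell receptors (-1.42 ± 0.43, adjusted p = 0.0267). Siglech and Csf1r were also on the list of microglial markers, of which 8 of 11 were called lower here, so both lists count them. Siglech ran from 11.68 to 11.88 in WT, 11.23 to 11.51 in 5XFAD and 11.58 to 11.81 in Trem2-/-5XFAD, whereas Klrd1 overlapped between WT and 5XFAD. With the sex signal in the fit Csf1r was not called (-0.28, adjusted p = 0.0514). Without the 2 arrays with the most neutrophil transcripts, Cd300lb was called higher beside these 3.

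Of the 9, 2 were called higher in Trem2-/-5XFAD than in 5XFAD, Siglech (0.34 ± 0.08, adjusted p = 0.00938) and Klrd1 (1.59 ± 0.39, adjusted p = 0.012), with a median of 0.21 against 0.04 for all genes, of which 3.21% were called higher. Without the 4 arrays with salivary transcripts, neither passed, with adjusted p-values of 0.0682 and 0.0748, and Klrd1 was also not called in 5XFAD vs WT (-0.90, adjusted p = 0.247). Klrd1 lost the latter call also without WT 2 (-1.01, adjusted p = 0.114), WT 4 (-1.39, adjusted p = 0.0615), 5XFAD 1 (-1.25, adjusted p = 0.0716) or 5XFAD 2 (-1.27, adjusted p = 0.067). In Trem2-/- vs WT and in Trem2-/-5XFAD vs Trem2-/-, 0 of the 9 were called, with medians of -0.01 and -0.04. Klrd1 was called in the former without WT 2 (1.79, adjusted p = 0.0444) and in the latter without the 4 arrays with salivary transcripts (-1.21, adjusted p = 0.0467).

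Below the adaptors, a few kinases and signalling proteins rose in 5XFAD with Trem2, while a larger number fell. Of 41 listed genes of the ITAM pathway 36 were tested. In 5XFAD vs WT 4 were called higher and 9 lower, where 8.23% and 6.77% of all tested genes were, with a median of -0.13 against -0.02 for all genes. The Src family kinases Fgr and Fyn and the paracaspase Malt1, which links ITAM receptors to NF-kappaB, were among the 4. Fgr ran from 4.38 to 5.16 in WT and from 6.11 to 7.08 in 5XFAD, a difference of 1.98 ± 0.22 (adjusted p = 1.4e-06). Fyn differed by 1.35 ± 0.21 (adjusted p = 8.41e-05) and Malt1 by 1.02 ± 0.12 (adjusted p = 3.75e-06). Among the 9, Nfatc2, a calcium-dependent transcription factor, was lower (-0.61 ± 0.10, adjusted p = 0.000156). Without the 4 arrays with salivary transcripts, 3 were called higher and 7 lower.

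Syk is given for its place directly below DAP12, and Plcg1 as a phospholipase of the pathway. Both were chosen after their values were seen. Syk was -0.38 ± 0.10 in 5XFAD vs WT (adjusted p = 0.00784) and 0.29 ± 0.09 in Trem2-/-5XFAD vs 5XFAD (adjusted p = 0.0403), but the first was lost with the sex signal in the fit (-0.31, adjusted p = 0.0583). The second held in only 16 of 32 alternative fits, and was lost without any single 5XFAD array other than 5XFAD 3 or any single Trem2-/-5XFAD array other than Trem2-/-5XFAD 2, at 0.24 to 0.31. It was also lost without the 4 arrays with salivary transcripts (0.24, adjusted p = 0.206) and without the 2 arrays with the most neutrophil transcripts (0.29, adjusted p = 0.0887). Plcg1, a phospholipase that starts calcium signalling, was -0.93 ± 0.17 (adjusted p = 0.000637) and 0.65 ± 0.16 (adjusted p = 0.0115), and the second call was lost with the neutrophil marker mean as a covariate (0.52, adjusted p = 0.0699). Fcer1g, the other ITAM adaptor of myeloid cells, was at 0.04 ± 0.08 in 5XFAD vs WT (adjusted p = 0.798).

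Of the 36, 6 were called higher and 4 lower in Trem2-/-5XFAD than in 5XFAD, where 3.21% and 4.46% of all tested genes were, with a median of 0.13 against 0.04. Malt1 (-0.97 ± 0.11, adjusted p = 3.5e-06), Fyn (-1.46 ± 0.19, adjusted p = 1.98e-05) and Fgr (-1.38 ± 0.20, adjusted p = 8.02e-05) were lower, and Vav2 was higher (0.45 ± 0.09, adjusted p = 0.00215). Without the 4 arrays with salivary transcripts, 4 were called higher and 3 lower. In mice without Trem2, 5XFAD vs control gave 1 call of 36, the phosphatase Ptpn6 (0.39 ± 0.09, adjusted p = 0.0212), a call that held in 22 of 32 alternative fits. It was lost without Trem2-/- 1, 3 or 4 and without Trem2-/-5XFAD 1 or 4, at 0.36 to 0.41 and adjusted p-values of 0.0505 to 0.0876. It was also lost without the 2 arrays with the most neutrophil transcripts (0.34, adjusted p = 0.165) and with the sex signal in the fit (0.45, adjusted p = 0.0556). Fyn was at -0.05 ± 0.20 and Malt1 at 0.08 ± 0.12 in that comparison. In Trem2-/- vs WT 0 of the 36 were called.

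The interaction tested whether the change with 5XFAD differed with Trem2 genotype, and 4 of the 36 passed. Malt1 (-0.94 ± 0.17, adjusted p = 0.00294), Fyn (-1.40 ± 0.29, adjusted p = 0.00852) and Fgr (-1.30 ± 0.30, adjusted p = 0.0234) changed more with Trem2 than without it. Pik3cg, a catalytic subunit of phosphoinositide 3-kinase, had a positive interaction (0.55 ± 0.13, adjusted p = 0.0202), which was 0.50 with an adjusted p of 0.0515 when arrays were centred on their medians. Fyn was -0.86 with an adjusted p of 0.104 without the 4 arrays with salivary transcripts, and Fgr had adjusted p-values of 0.0534 and 0.0546 without WT 3 or WT 4. Without the arrays with salivary transcripts Plcg1 was called instead of Fyn (1.02, adjusted p = 0.0257).

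**Figure D5:**
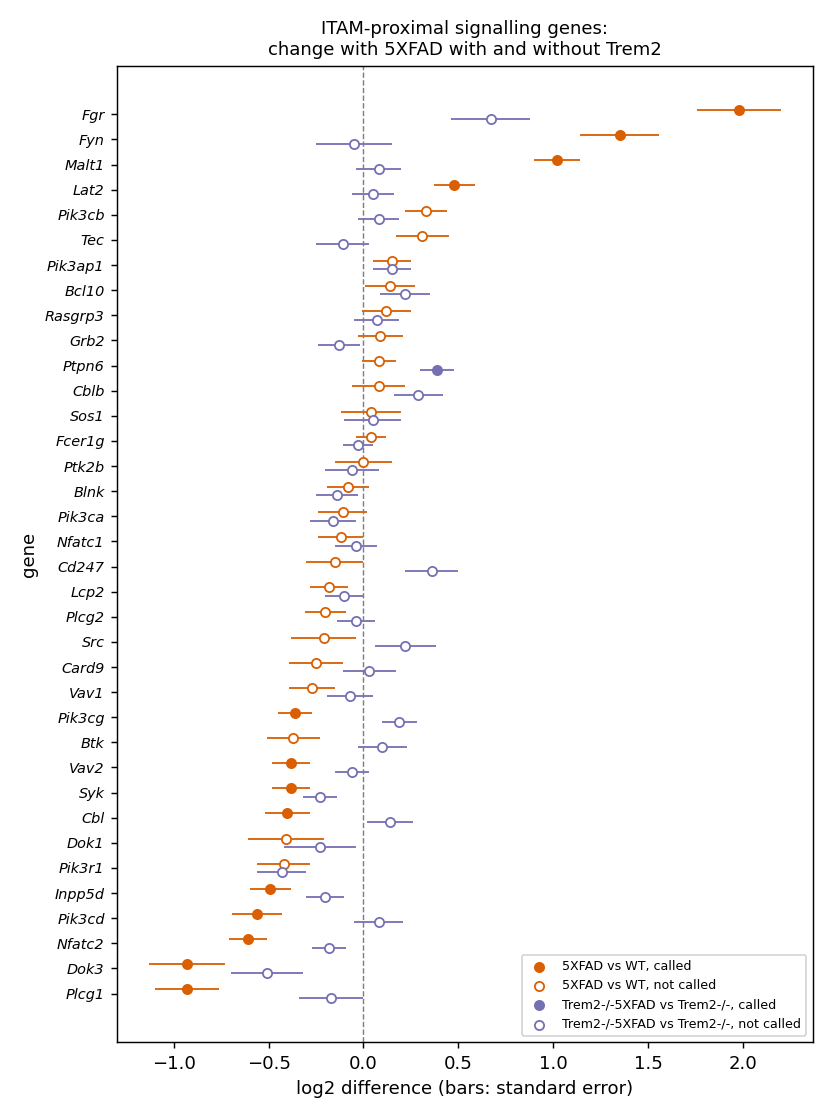
Change with 5XFAD of the 36 tested ITAM pathway genes in mice with Trem2 (5XFAD vs WT, orange) and without it (Trem2-/-5XFAD vs Trem2-/-, purple), on the log2 scale; bars are standard errors and filled points have an adjusted p under 0.05. Fgr, Fyn and Malt1 are the highest orange points (1.98, 1.35 and 1.02), and a single purple point is filled.

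TREM2 is cut at the cell surface by ADAM proteases and its stub by gamma-secretase. Of 8 tested genes of this group, 0 were called higher and 2 lower in 5XFAD vs WT, where 6.77% of all tested genes were called lower. These were Adam10, the main sheddase (-0.51 ± 0.11, adjusted p = 0.00304), and Aph1b, a gamma-secretase subunit (-0.53 ± 0.14, adjusted p = 0.0125). Aph1b was close to the filter, at 4.17 to 4.66 in WT and 3.68 to 4.12 in 5XFAD. It thus lay below the filter on all 5XFAD arrays. With the array of conflicting labels placed in WT its call was lost (-0.38, adjusted p = 0.115). Aph1b was not tested without the 4 arrays with salivary transcripts, and Adam10 was called without them. The median of the 8 was 0.04, and 0 were called in the other comparisons and the interaction.

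Among ligands of TREM2 and TREM1, 8 of 10 listed were tested. Apoe, a lipid carrier that TREM2 binds, was higher in 5XFAD than in WT by 1.55 ± 0.14 (adjusted p = 4.87e-08), and Lgals3, the galectin-3 gene, by 2.00 ± 0.16 (adjusted p = 1.01e-08). The median of the 8 was 0.30, against -0.02 for all genes, of which 8.23% were called higher, and 0 of the 8 were called lower. Without Trem2 both were also higher with 5XFAD, Apoe by 1.36 ± 0.13 and Lgals3 by 1.56 ± 0.15, and Clu, which encodes clusterin, by 0.70 ± 0.15 (adjusted p = 0.0178), a call lost without Trem2-/- 1 or Trem2-/- 2 (adjusted p-values of 0.0641 and 0.075), without the 2 arrays with the most neutrophil transcripts (0.117) and with the sex signal in the fit (0.121). None of the 8 had a called interaction. Lgals3 was lower in Trem2-/-5XFAD than in 5XFAD (-0.66 ± 0.14, adjusted p = 0.00486), a call that was lost without the 4 arrays with salivary transcripts (-0.55, adjusted p = 0.0625). In Trem2-/- vs WT, 0 of the 8 were called, but Clu was called lower without WT 1 (-0.71, adjusted p = 0.0306) and without the 4 arrays with salivary transcripts (-0.84, adjusted p = 0.00968).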

How the data were processed

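Microglial RNA from 19 grouped mouse samples, and 1 sample with conflicting labels, was measured on 1-colour arrays. Per the labels' protocols, cells went from the sorter into lysis buffer, and biotinylated cRNA was made from the column-purified RNA. The authors deposited linear intensity values for 24679 probe sets. The sources used here do not say how these were summarised and normalized. Column medians of 25.7 to 28.6 show a common scale, and no further scaling was applied.

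The platform annotation named 1 gene for 21354 probe sets, several for 1275 and none for 2050, and the probe set with the highest mean stood for a gene. The scale was log2(intensity + 1), so the pseudocount was 1. A gene was tested if it exceeded the 40th percentile of the array, an intensity of 16.9 to 19.2, on at least 4 arrays, which left 12728 of 19751 genes. A model over all 4 groups was fitted with limma 3.58.1 in R 4.3.3 (residual degrees of freedom 15, prior 5.29), with Benjamini-Hochberg adjustment over all tested genes. The code was tested on simulated data. The labels call the animals littermates and say no more on how separate the samples are. The p-values therefore rest on the spread of these arrays, and the number of arrays limits the precision. No 2 columns were identical.

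The 8 genes, the gene lists and the alternatives were chosen with earlier results of these data known. The text describes each of the 8 genes in all 4 groups, but does not print each of their differences. It names up to 4 called genes of each list with the smallest p, the nearest 5 tested genes on either side of Trem2, the neighbours of the adaptors, and the 3 genes with the closest pattern. Other named genes were marker genes or were chosen for their role. Alternatives changed the scaling, pseudocount, filter, probe set, samples in the fit and covariates, or left out arrays. In 32 alternative fits, 19 left out 1 array each. Promoter sequences are from RefSeq (GRCm38.p6).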

Additional observations from a re-analysis of the deposited data

Results flagged for a closer look

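In 32 combinations of gene and group, 3 held a value far from the rest of its group, where chance gives about 1 in 20. Trem2 on WT 4 was 11.14, below the other WT arrays at 11.36 to 11.39. Trem1 on Trem2-/-5XFAD 1 was 5.57, against 3.54 to 4.26 on the other arrays of that group. Treml4 on the same array was 5.37, against 3.52 to 3.92. That array also had the highest neutrophil marker mean, 5.86, and a monocyte marker mean of 5.20, and the part of these cells in its Trem1 and Treml4 values was not tested.

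For 4 ITAM pathway genes the change with 5XFAD differed between mice with and without Trem2, by the interaction term of limma. The interaction was -0.94 for Malt1, -1.40 for Fyn, -1.30 for Fgr and 0.55 for Pik3cg. Fyn was 1.35 ± 0.21 higher with 5XFAD when Trem2 was present and -0.05 ± 0.20 when it was absent.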

How the results depend on the processing

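The 5 counts of called genes were recomputed under 13 settings (12 for the interaction) and without each array in turn. In 5XFAD vs WT the count of 2 became 4, with Trem2 and Tyrobp added, when the array with conflicting labels was placed in WT or with a pseudocount of 16, and was 2 to 3 without single arrays. In Trem2-/- vs WT it was 1 in every setting and 1 to 2 without single arrays. In Trem2-/-5XFAD vs 5XFAD it was 3 to 4 and 3 throughout. In Trem2-/-5XFAD vs Trem2-/- the count of 1 became 0 with the replicate block, with the sex signal as a covariate and without the 2 arrays with the most neutrophil transcripts, and was 0 to 1 without single arrays. For the interaction the count of 0 became 1, Hcst, with the replicate block, and was 0 to 1 without single arrays. The cause was not tested. No called difference of the 7 tested genes reversed: of 1082 recomputed values, 5 lost and 10 gained a call.

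Replicate numbers showed little pairing in the deviations from group means. These correlated at -0.10 to 0.17 over 25 same-numbered pairs (median 0.01), and 5 of 19 arrays correlated best with their own number. However, the arrays with salivary transcripts had the same replicate numbers in WT and in 5XFAD, and no knockout array was among them. Whether same-numbered samples shared a step of preparation was not tested. With the replicate block, Treml2 in Trem2-/-5XFAD vs Trem2-/- was 0.84 (adjusted p = 0.064), Fgr there was 0.80 and called (adjusted p = 0.0483), the Hcst interaction was -0.81 (adjusted p = 0.0224) and the Pik3cg interaction was 0.55 (adjusted p = 0.0609).

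With the array of conflicting labels in Trem2-/-, Trem2 in Trem2-/- vs WT was -3.53 (adjusted p = 0.00442). Over all genes, 78 were called in Trem2-/- vs WT, with 11 in a fit of these groups alone and 272 without the arrays with salivary transcripts. In Trem2-/-5XFAD vs 5XFAD 977 became 574 without those arrays. In Trem2-/-5XFAD vs Trem2-/- 278 became 430 without them and 145 without the 2 arrays with the most neutrophil transcripts, which also took the interaction from 331 to 208. Treml4, Trem1 and Trem3 lie at or near the filter, where signal over background limits what can be seen.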

Other observations

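The array with a WT title and a Trem2-/- genotype label gave Trem2 at 11.08, Treml2 at 6.0, Treml1 at 5.35, Treml4 at 3.23, Trem1 at 3.88, Trem3 at 3.79, Tyrobp at 12.26 and Hcst at 7.66. Its Trem2 value lay just below the WT arrays, at 11.14 to 11.39, and far above the arrays grouped as Trem2-/-, at 6.84 to 7.02. By this signal the array was like WT and went against its Trem2-/- genotype label. Its neutrophil marker mean was 4.07 and its monocyte marker mean 4.77. Its border macrophage marker mean was 7.24, above the WT arrays, at 5.95 to 6.80, and within the range of Trem2-/-, at 6.32 to 7.55.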
